A study of Homo sapiens with 9 samples.

Results

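S100 proteins are small calcium-binding proteins of vertebrates, and 10 of their genes were followed through 9 RNA-seq libraries of HaCaT cells, an immortalised line of human keratinocytes. The genes are S100A2, S100A4, S100A6, S100A8, S100A9, S100A10, S100A11, S100A14, S100A16 and S100P, taken by symbol from 58336 genes in the deposited tables. The labels describe 3 samples of each of 3 groups. Cells of the 2 treated groups received low-dose ALA-PDT, in which 5-aminolevulinic acid at 0.5 mmol/L lets cells build up a light-sensitive porphyrin, followed by red light of 635 ± 5 nm at 3 J/cm2. They were kept for 12 h or 48 h afterwards, and the 3 control samples were untreated. All groups are cultures of 1 cell line, and nothing in the labels says whether the samples of a group came from separate cultures, so p-values measure only the spread between these samples.

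The column names do not spell out the groups. The libraries are named A1 to A3, B1 to B3 and Nc1 to Nc3. Nc was read as control, and A and B were taken as the treated stems from a description of the columns supplied for this re-analysis and by elimination, since 6 of the 9 labelled samples were treated. No label ties these names to samples, so this is a reading. It was not made from column order or from values. Which of A and B was kept for 12 h and which for 48 h is not known, so both are named by stem. Every direction against control below depends on this reading. The direction of A against B follows the column names, but that both stems were treated also depends on this reading.

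Most S100 proteins are dimers of subunits with paired EF-hand loops, and calcium binding exposes a surface that grips a partner protein. S100A10 is the exception that does not bind calcium and sits in a complex with annexin A2. Most of the genes lie side by side on the long arm of chromosome 1, within the epidermal differentiation complex, a cluster of genes used by keratinocytes as they form the outer skin barrier. S100A8 and S100A9 pair as calprotectin, which is abundant in granulocytes and is made by keratinocytes in inflamed skin.

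Of the 10 genes, 9 lie on chromosome 1 and S100P lies on chromosome 4. In the deposited table, on GRCh38, S100A2 spans chr1:153561108-153567890, S100A9 spans chr1:153357854-153361027, S100A10 spans chr1:151982915-151994390 and S100A16 spans chr1:153606886-153613145. S100A9 is on the plus strand and the other named genes are on the minus strand. The promoters of these 4 genes are printed because these were the members that differed between the treated stems. Each runs from 250 bases before to 50 bases after the RefSeq start site on GRCh38.p14, 5′ to 3′, and capitals mark the motif matches named after them. For S100A2 and S100A16, which have more than 1 start site listed, the first entry is shown.
S100A2, chr1:153565795-153566094, minus strand: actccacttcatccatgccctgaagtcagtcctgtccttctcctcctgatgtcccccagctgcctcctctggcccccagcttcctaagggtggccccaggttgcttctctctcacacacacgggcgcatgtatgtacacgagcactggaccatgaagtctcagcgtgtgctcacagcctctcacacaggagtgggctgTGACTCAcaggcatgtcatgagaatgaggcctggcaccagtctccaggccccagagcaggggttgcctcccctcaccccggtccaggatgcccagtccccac
S100A16, chr1:153613088-153613387, minus strand: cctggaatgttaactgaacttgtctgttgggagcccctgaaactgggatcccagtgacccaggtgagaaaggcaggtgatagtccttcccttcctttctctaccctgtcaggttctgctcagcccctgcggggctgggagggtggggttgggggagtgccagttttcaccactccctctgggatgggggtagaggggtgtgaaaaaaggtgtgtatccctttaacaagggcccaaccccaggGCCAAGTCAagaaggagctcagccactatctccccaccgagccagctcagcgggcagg
S100A9, chr1:153357604-153357903, plus strand: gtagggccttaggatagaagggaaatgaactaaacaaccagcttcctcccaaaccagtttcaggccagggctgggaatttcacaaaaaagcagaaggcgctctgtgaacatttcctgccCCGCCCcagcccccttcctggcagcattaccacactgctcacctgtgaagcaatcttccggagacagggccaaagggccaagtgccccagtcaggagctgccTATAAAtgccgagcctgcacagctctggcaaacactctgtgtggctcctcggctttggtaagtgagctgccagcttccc
S100A10, chr1:151993810-151994109, minus strand: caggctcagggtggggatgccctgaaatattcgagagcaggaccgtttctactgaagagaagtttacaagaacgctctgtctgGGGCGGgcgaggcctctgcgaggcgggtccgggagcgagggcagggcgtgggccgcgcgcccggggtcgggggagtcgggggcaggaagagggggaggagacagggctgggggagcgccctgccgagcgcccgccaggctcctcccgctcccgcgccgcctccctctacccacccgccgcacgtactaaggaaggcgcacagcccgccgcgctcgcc

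Motifs were searched on both strands of these windows. The S100A2 window holds an AP-1 site, TGANTCA, with its first base 52 bases before the start site, and 7.71% of 35116 promoters hold one. The S100A16 window holds the core of an antioxidant response element, TGACNNNGC, on the reverse strand, and 13.3% of promoters hold one. Its first printed base is 8 bases before the start site, and the match reaches the start site. S100A9 has a TATA box, TATAAA, with its first base 29 bases before the start site, and 11.5% of promoters hold one at any position. S100A9 and S100A10 each have a GC box, GGGCGG, which 45.0% of promoters hold. None of the 4 printed windows holds a CCAAT box, CCAAT, which 34.6% of promoters hold. A match describes letters only, and binding was not measured.

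Library totals lay between 15337296 and 18028419 counts. The keratinocyte marker KRT5 had 105.8 to 113 FPKM in A, 61.4 to 73 FPKM in B and 89.0 to 100.96 FPKM in control libraries, so the cells carried a keratinocyte transcript throughout. KRT14, another basal keratin, was close to undetected, with 12 to 20 counts in A, 2 to 3 counts in B and 8 to 15 counts in control libraries. Counts of red cell genes differed between libraries of the same stem. Summed over 8 markers they were 603, 1245 and 7 in A1 to A3, 4, 10 and 8417 in B1 to B3, and 7358, 7482 and 3 in Nc1 to Nc3. Of the tested markers of other cell types, CDH5 of endothelium (185 to 230 counts in B, 31 to 52 in control libraries) and PMEL of melanocytes (38 to 43 counts in B, 11 to 22 in control libraries) were higher in B than in control. PECAM1, the other tested endothelial marker, had 6, 7 and 22 counts in B1 to B3 and 15, 19 and 0 in Nc1 to Nc3. VWF had 1 to 3 counts in B and 0 to 3 in control libraries, and KDR had 3 to 4 and 0. MLANA had 0, 6 and 0 counts in B1 to B3 and 1 to 3 in control libraries. DCT had 1 to 2 counts in B and 0 in control libraries, and TYR had 0 in every library. The summed counts of 6 fibroblast markers were 113, 192 and 26 in A1 to A3, 35, 61 and 62 in B1 to B3, and 51, 43 and 69 in Nc1 to Nc3. COL3A1 (27 and 31 counts), DCN (11 and 11 counts) and LUM (9 and 14 counts) were found in A1 and A2 and were at 0 in the other 7 libraries. Of the 6, 2 passed the filter on low counts, COL1A1 and COL1A2, and 0 were called by edgeR or DESeq2 or had an unadjusted p under 0.05 in any comparison. The part of these other cell markers in the differences of the S100 genes was not tested.

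Levels of the 10 genes differed widely in FPKM, a level scaled by gene length and library size. S100A2, S100A6 and S100A11 stood highest, S100A10, S100A14 and S100A16 followed, then S100A9 and S100A4, and S100A8 and S100P were near 1 FPKM. Neighbours in this order were often within each other's spread: S100A6 averaged 1770 ± 324 FPKM and S100A11 1600 ± 154 FPKM in A (SD, n = 3 each). In B, S100A2 (1847 ± 438 FPKM) and S100A6 (1868 ± 288 FPKM) did not differ beyond their spread (SD, n = 3 each). Together the 10 genes took 1.03 ± 0.145% of counts in A, 0.700 ± 0.0809% in B and 0.785 ± 0.152% in control libraries (SD, n = 3 each). S100A2 alone made up 58.4 ± 2.46% of that sum in A, 42.2 ± 3.05% in B and 53.4 ± 2.97% in control libraries (SD, n = 3 each).

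**Figure D1:**
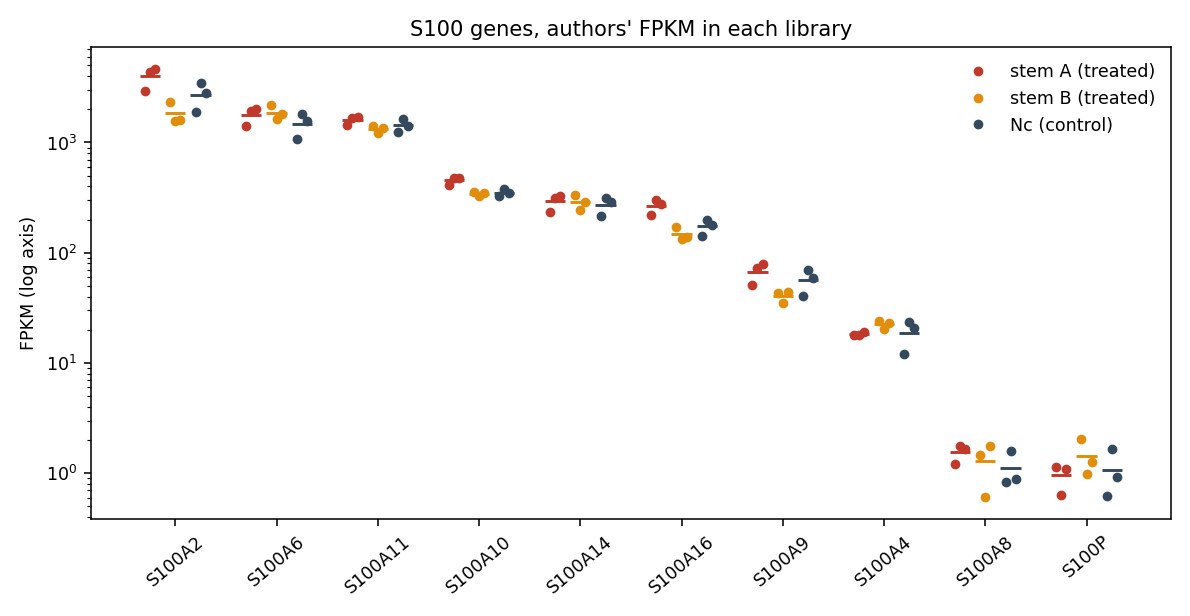
FPKM of the 10 S100 genes on a log axis, with 1 point per library and a line at the mean of each stem of 3 libraries. S100A2, S100A6 and S100A11 lie at 1074 FPKM or more, whereas S100A8 and S100P lie near 1 FPKM.

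S100A2 is a largely nuclear S100 protein of basal keratinocytes. It had 2958, 4346 and 4664 FPKM in A1 to A3, 2352, 1575 and 1614 FPKM in B1 to B3, and 1884, 3433 and 2838 FPKM in Nc1 to Nc3. Every A library lay above every B library, and control libraries overlapped both. S100A2 was 2.17-fold higher in A than in B (log2 1.11, SE 0.22, edgeR adjusted p = 0.00300). Against control the log2 difference was 0.57 in A (SE 0.22, edgeR adjusted p = 0.150) and -0.55 in B (SE 0.22, edgeR adjusted p = 0.107), and neither passed the threshold of 0.05. These comparisons use the same 3 control libraries. In bulk RNA, fewer cells that express a gene and less of its RNA per cell cannot be told apart.

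S100A16 is a widely expressed S100 protein. Its FPKM were 220, 298 and 274 in A1 to A3, 172, 134 and 139 in B1 to B3, and 142, 199 and 178 in Nc1 to Nc3. All A libraries exceeded all others, and B overlapped control. It was higher in A than in B by log2 0.84 (SE 0.16, edgeR adjusted p = 0.00220). It was also higher in A than in control, 1.54-fold (log2 0.62, SE 0.16, edgeR adjusted p = 0.0448). The log2 difference of B from control was -0.21 (SE 0.16, edgeR adjusted p = 0.396). The call in A against control sat at the threshold: it was lost with the number in the column name as a replicate block for all libraries (edgeR adjusted p = 0.0806), when only the 6 libraries of A and control were fitted (0.0765), without mitochondrial genes (0.0556) and by limma on FPKM (adjusted p = 0.0920). It was also lost without any 1 of Nc1 (edgeR adjusted p = 0.143), Nc3 (0.131), A2 (0.259), A3 (0.177), B1 (0.0540), B2 (0.0609) or B3 (0.0558), and without Nc1 and Nc2 together (0.452). Over all alternatives its edgeR, DESeq2 or limma adjusted p ran from 0.00116 to 0.452.

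S100A9 had 50.9, 72.3 and 78.2 FPKM in A1 to A3, 42.7, 34.8 and 43.9 FPKM in B1 to B3, and 40.8, 69.8 and 58.5 FPKM in Nc1 to Nc3. The A libraries lay above the B libraries, and both overlapped control. It was 1.66-fold higher in A than in B (log2 0.73, SE 0.19, edgeR adjusted p = 0.0153). The call was lost without A2, A3 or B2, with edgeR adjusted p between 0.0640 and 0.0943. The lowest over all alternatives, 0.000105 by edgeR, came from the fit with no filter on low counts. Against control the log2 difference was 0.27 in A (SE 0.19, edgeR adjusted p = 0.413) and -0.47 in B (SE 0.19, edgeR adjusted p = 0.114).

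S100A8, the calprotectin partner of S100A9, was rare: 21, 26 and 24 counts in A1 to A3, 24, 11 and 34 counts in B1 to B3, and 15, 25 and 15 counts in Nc1 to Nc3. These groups overlap, and no comparison passed. Granulocytes carry much S100A8, S100A9 and S100P, so their markers matter here. The summed counts of 11 granulocyte and monocyte markers were 100, 102 and 47 in A1 to A3, 63, 96 and 441 in B1 to B3, and 378, 335 and 28 in Nc1 to Nc3. CD14, a monocyte receptor, was the 1 of 7 tested that was called, lower in A than in B (7, 17 and 9 counts in A1 to A3 and 38, 38 and 35 counts in B1 to B3; log2 -1.54, SE 0.46, edgeR adjusted p = 0.0304). Of all genes, 18% were called in A against B. FCGR3B, a neutrophil receptor, was at 0 in A3, B1, B2 and Nc3 and had 60 to 79 counts in B3, Nc1 and Nc2. S100A9 was highest in A3 (45.2 CPM), where FCGR3B was at 0, and had 40.4 CPM in Nc2, where FCGR3B had 79 counts. S100A8 had similar levels in A2 (1.79 CPM) and B3 (1.77 CPM), its highest libraries. Leaving out B3 gave for S100A9 a log2 difference of A from B of 0.79 (edgeR adjusted p = 0.0346). The part of blood cell RNA in the counts of S100A8, S100A9 and S100P was not tested.

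**Figure D2:**
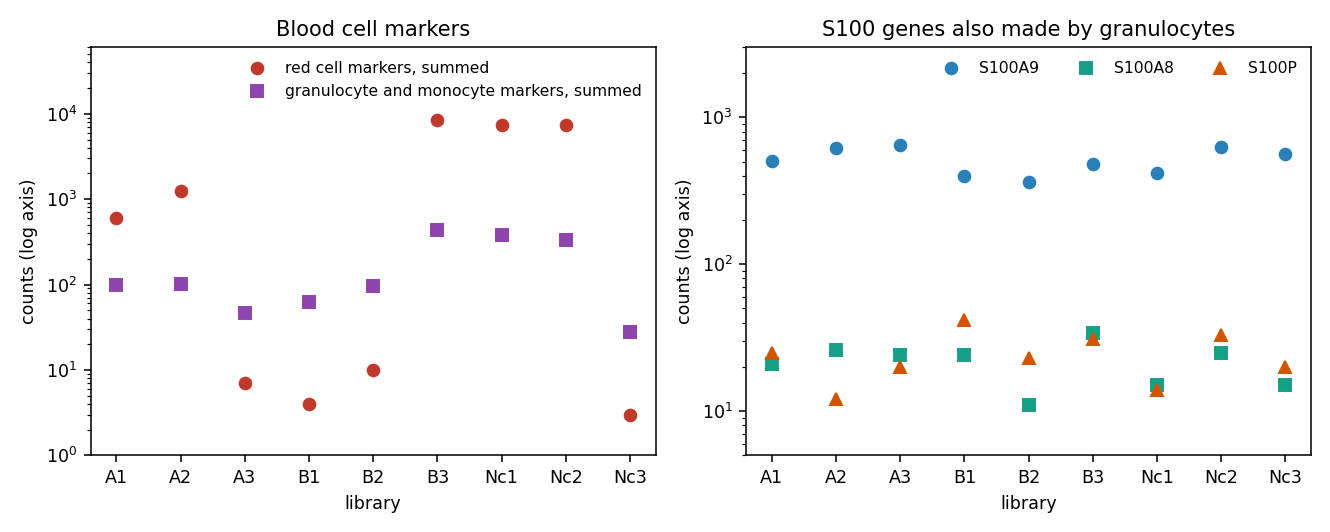
Left, summed counts of red cell and of granulocyte and monocyte markers in each library, on a log axis. Right, counts of S100A9, S100A8 and S100P in the same libraries, on a log axis. The markers are high in B3, Nc1 and Nc2, and S100A9 is highest in A3 (648 counts), followed by Nc2 (625 counts).

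S100A10 had 413, 475 and 474 FPKM in A1 to A3, 355, 328 and 345 FPKM in B1 to B3, and 326, 375 and 349 FPKM in Nc1 to Nc3. All A libraries lay above all others. The difference of A from B was log2 0.41 (SE 0.12, edgeR adjusted p = 0.0274), and A minus control was 0.39 (SE 0.12, edgeR adjusted p = 0.0904). B lay at control level, with a log2 difference of -0.02 and a 95% interval of -0.27 to 0.23. The call in A against B did not hold without A2 (edgeR adjusted p = 0.0991), A3 (0.110), B1 (0.0516), B2 (0.110), B3 (0.103) or Nc3 (0.0501). It was also lost with the replicate block (edgeR adjusted p = 0.0594), with that block and GC and length offsets (0.0587), with a minimum mean of 100 counts (0.0575) and by limma on FPKM (adjusted p = 0.0508). The lowest adjusted p over all alternatives, by DESeq2, was 0.00182.

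**Figure D3:**
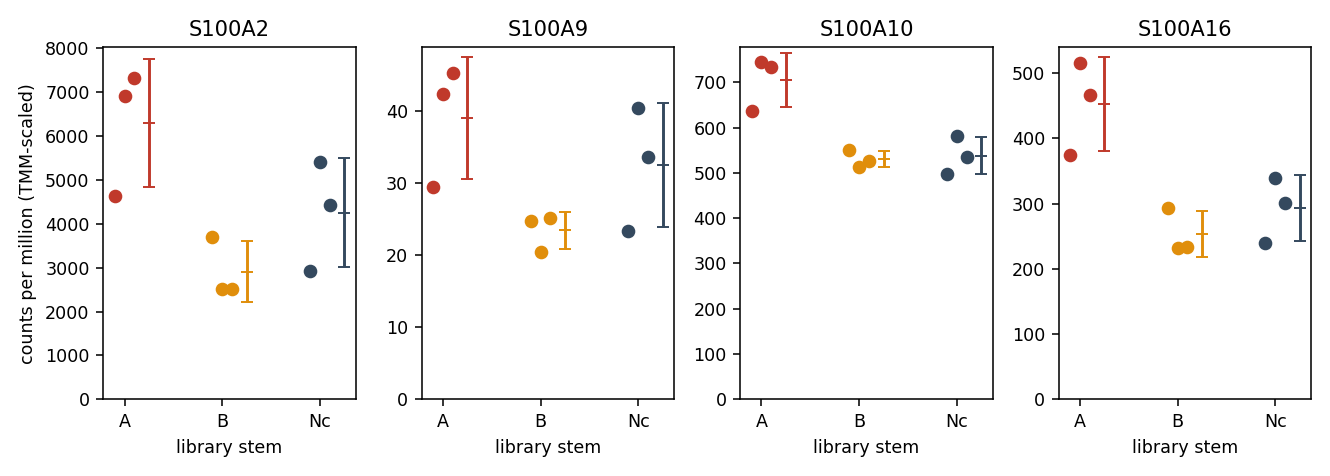
CPM (counts scaled to library size) of S100A2, S100A9, S100A10 and S100A16 with TMM scaling, 1 point per library, with the mean and SD of 3 libraries beside them. In all 4 panels the A points lie above the B points.

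S100A11, which binds annexin A1 and is built into the cornified envelope, had 1427, 1655 and 1719 FPKM in A1 to A3, 1413, 1212 and 1357 FPKM in B1 to B3, and 1233, 1642 and 1411 FPKM in Nc1 to Nc3. A lay just above B, and the log2 difference was 0.27 (95% interval -0.02 to 0.56, edgeR adjusted p = 0.176). S100A6, calcyclin, which binds several annexins and the protein CACYBP, averaged 1770 ± 324 FPKM in A, 1868 ± 288 FPKM in B and 1479 ± 370 FPKM in control libraries (SD, n = 3 each). Its libraries overlapped in every comparison, and the log2 difference was 0.27 in A (edgeR adjusted p = 0.396) and 0.35 in B (edgeR adjusted p = 0.235) against control. S100A14, a membrane-associated epithelial S100 protein, averaged 293 ± 49.3 FPKM in A, 289 ± 46.8 FPKM in B and 273 ± 50.6 FPKM in control libraries (SD, n = 3 each). Its 95% interval for A minus B ran from -0.33 to 0.38 on the log2 scale.

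S100A4, which binds non-muscle myosin IIA, was the 1 member with all A libraries below all B libraries. It had 18.1, 17.8 and 19.2 FPKM in A1 to A3, 23.8, 20.5 and 22.8 FPKM in B1 to B3, and 12.1, 23.3 and 20.6 FPKM in Nc1 to Nc3. The log2 difference of A from B was -0.28 (SE 0.19, edgeR adjusted p = 0.312). S100P, which binds ezrin, had 12 to 25 counts in A, 23 to 42 counts in B and 14 to 33 counts in control libraries, and its groups overlapped.

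Counted over the list, A was higher than control for 1 of 10 members and lower for none, where 2.72% of 13845 genes were called, 1.76% as higher and 0.953% as lower. All A libraries lay above all control libraries for 2 members, S100A10 and S100A16. Over all genes, 26.1% did not overlap, counted in either direction. DESeq2 called 2 members higher in A, and 3 had an unadjusted edgeR p under 0.05. With the number in the column name as a replicate block for all libraries, edgeR called 0 members in A against control. Same-numbered A and Nc libraries deviated together, but so did some differently numbered pairs with B, such as A1 with B2 (r = 0.61). With a block for A and Nc alone, chosen after seeing the data, edgeR called 3 members higher in A: S100A2 (log2 0.58, adjusted p = 0.00832), S100A10 (log2 0.39, adjusted p = 0.0155) and S100A16 (log2 0.63, adjusted p = 0.00116). That same fit called 1 member higher (S100A6) and 2 lower (S100A2 and S100A9) in B against control. In B against control, edgeR and DESeq2 each called 0 of 10 members, beside 13.4% of all genes called by edgeR (6.12% higher and 7.24% lower), and 2 members, S100A2 and S100A9, had an unadjusted edgeR p under 0.05. No member was separate from control in B, where 30.9% of genes were. With A and B averaged, 0 of 10 members passed by edgeR or by DESeq2, and 0 had an unadjusted p under 0.05, beside 4.99% of genes called by edgeR (1.39% higher and 3.6% lower). In A against B, 4 of 10 were higher, where 18% of all genes were called, 9.25% as higher and 8.79% as lower. In CPM, the A and B libraries did not overlap for 6 members, beside 34.3% of genes. The median log2 difference over the members was 0.27 in A against control, 0.03 in B against control and 0.27 in A against B, where the medians over all genes tested were 0.01, 0.00 and 0.02. The members were chosen with results of these data known, so these counts describe them and test nothing about the family.

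**Figure D4:**
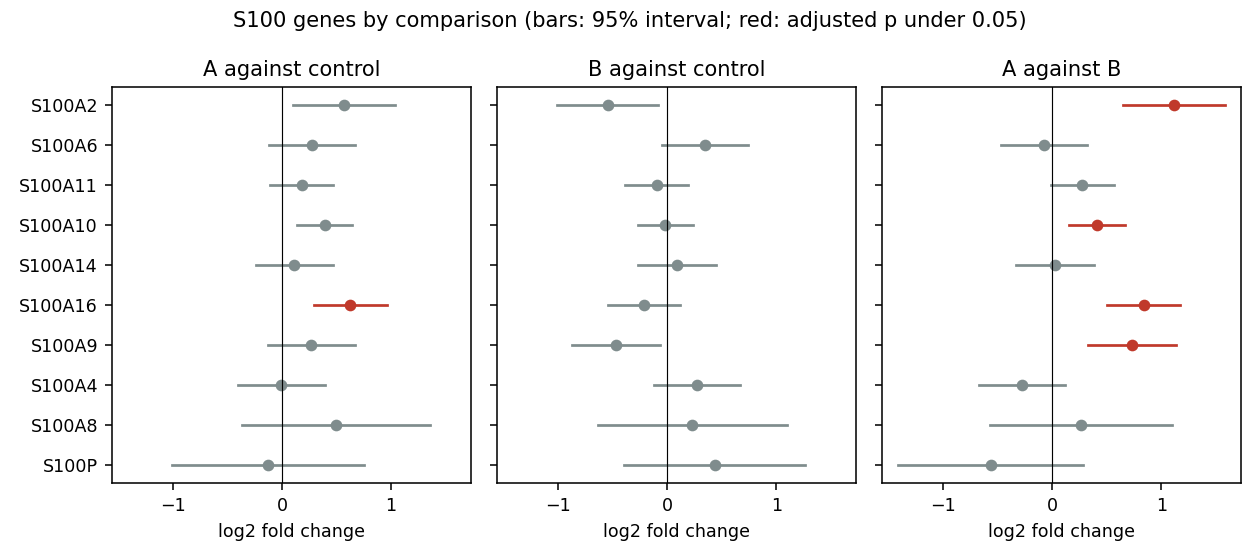
Log2 fold changes with 95% intervals for the 10 genes in A against control, B against control and A against B, from edgeR on 9 libraries. Red marks an adjusted p under 0.05, which covers S100A16 in the first panel and S100A2, S100A10, S100A16 and S100A9 in the last.

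S100 transcripts are short and above the median of tested genes in GC content: their longest annotated transcripts rank between percentiles 2.66 and 11.1 of length and between percentiles 64.5 and 86.8 of GC content. The libraries differed in that respect. In Nc1, the median deviation from the mean library was 0.37 (log2) in the lowest of 5 equal bins of genes by GC content and -0.27 in the highest. The treated stems differed as well. In the highest bin the deviation was -0.0385, 0.255 and 0.214 in A1 to A3, and 0.0837, -0.175 and -0.0673 in B1 to B3. With offsets that remove smooth trends on GC content and length, the 4 members stayed higher in A than in B, by smaller differences. These were log2 1.01 for S100A2, 0.67 for S100A16, 0.52 for S100A9 and 0.26 for S100A10. Without offsets they were 1.11, 0.84, 0.73 and 0.41 in the same order. The same offsets added S100A6 (log2 -0.40, edgeR adjusted p = 0.00062) and S100A4 (log2 -0.44, edgeR adjusted p = 0.0169) as lower in A than in B. In B against control they gave calls for S100A2 (log2 -0.57, edgeR adjusted p = 0.00748), S100A9 (log2 -0.42, edgeR adjusted p = 0.00356), S100A16 (log2 -0.24, edgeR adjusted p = 0.0316) and S100A6 (log2 0.44, edgeR adjusted p = 0.00068). The part of GC content and length in the uncorrected differences was not tested.

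**Figure D5:**
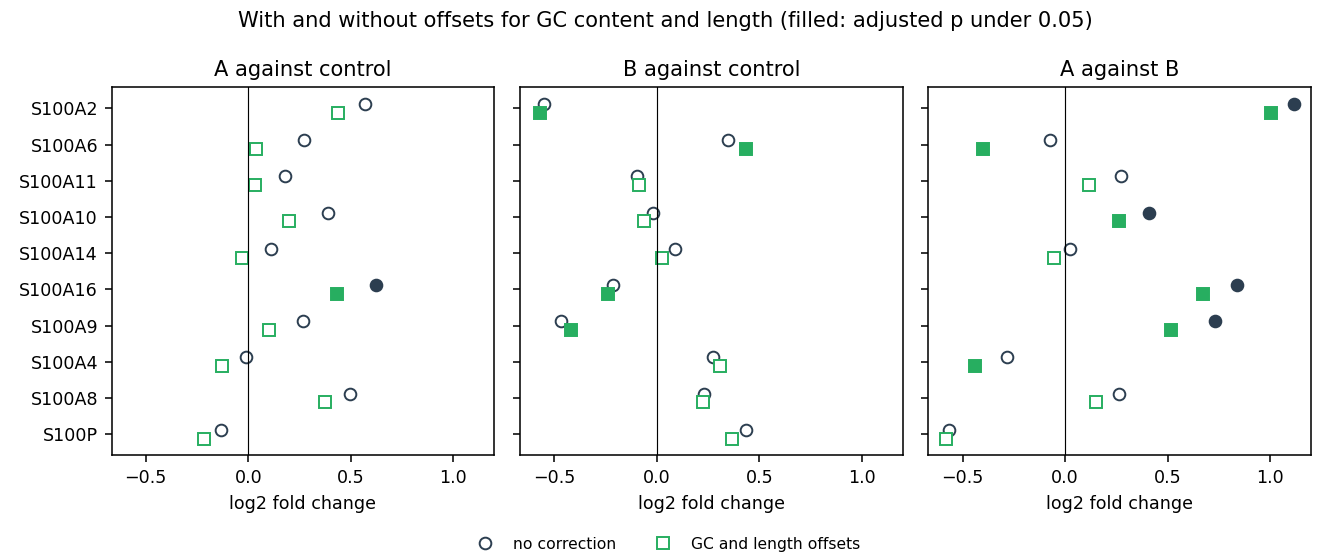
Log2 fold changes of the 10 genes without correction (circles) and with offsets for GC content and transcript length (squares). Filled symbols have an adjusted p under 0.05. The squares add S100A6 and S100A4 in A against B, and S100A2, S100A9, S100A16 and S100A6 in B against control.

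Among 22 genes of S100 partners and receptors, 20 were tested. In A against control 0 were higher and 1 was lower, in B against control 2 were higher and 4 lower, and in A against B 3 were higher and 4 lower. Over all genes tested, edgeR called 2.72% in A against control, 13.4% in B against control and 18% in A against B. PLAT, tissue plasminogen activator, whose product is bound at the cell surface by S100A10, was the partner called in all 3. It had 13.03, 12.3 and 12.5 FPKM in A1 to A3, 49.0, 48.3 and 49.8 FPKM in B1 to B3, and 18.7, 18.1 and 20.1 FPKM in Nc1 to Nc3. Its groups do not overlap. PLAT was lower in A than in control (log2 -0.58, SE 0.11, edgeR adjusted p = 0.0102) and higher in B than in control (log2 1.38, SE 0.11, edgeR adjusted p = 8.7e-06). ANXA2, the annexin partner of S100A10, was not called, with log2 0.05 in A and -0.23 in B against control. ANXA1 was lower in B than in control (log2 -0.81, SE 0.16, edgeR adjusted p = 0.00466) and ANXA6 was higher (log2 1.404, SE 0.25, edgeR adjusted p = 0.00320). CACYBP was lower in B (log2 -0.63, SE 0.13, edgeR adjusted p = 0.00674), as were NPM1 (log2 -0.67) and SUGT1 (log2 -0.54) of the same list. CACYBP encodes a calcyclin-binding protein. In A against B, ANXA1, CACYBP and MYH9 were higher, and those lower included ANXA6, PLAT and TRPV6. ANXA6 rests on 20 to 35 counts in A, 67 to 84 in B and 23 to 31 in control libraries. TRPV6 rests on 14 to 18 counts in A, 38 to 41 in B and 31 to 34 in control libraries.

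Of 12 other genes with S100 symbols, 4 could be tested. S100A13 was the highest of them, with 30.2 to 48.0 FPKM in A, 27.6 to 33.2 FPKM in B and 22.6 to 35.0 FPKM in control libraries, and it passed in no comparison. S100A7, psoriasin, had 11 to 35 counts in A, 26 to 33 in B and 19 to 44 in control libraries. S100B, S100G and S100A7L2 had 0 counts in all 9 libraries, where 3 counts, the limit a count of 0 allows, corresponded to 0.166 to 0.196 CPM. S100PBP, which encodes a protein that binds S100P and is no S100 protein itself, was the 1 called, lower in A than in B (log2 -0.55, SE 0.16, edgeR adjusted p = 0.0240). In that comparison 18% of all genes were called.

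Among 9 tested neighbours in the epidermal differentiation complex and nearby, 0 were called in A against control by edgeR or DESeq2, and 2 had an unadjusted edgeR p under 0.05. Of all genes tested, edgeR called 2.72% in that comparison, 13.4% in B against control and 18% in A against B. In B against control CHTOP, a chromatin-associated RNA-binding protein, was higher (log2 0.39) and SPRR2A was lower (log2 -2.13, SE 0.40, edgeR adjusted p = 0.00440). In A against B, SPRR1B, a cornified envelope precursor, was higher (log2 1.57, SE 0.47, edgeR adjusted p = 0.0297), while FLG (filaggrin; log2 -1.95, SE 0.36, edgeR adjusted p = 0.00200) and IVL (involucrin; log2 -0.56, SE 0.16, edgeR adjusted p = 0.0233) were lower. FLG rests on 5 to 12 counts in A, 35 to 42 in B and 15 to 25 in control libraries. SPRR1B rests on 29, 15 and 47 counts in A1 to A3 and 7, 7 and 22 in B1 to B3. Its A2 value (1.03 CPM) lay below its B3 value (1.15 CPM). SPRR2A rests on 6, 6 and 19 counts in B1 to B3 and 45, 33 and 49 in Nc1 to Nc3. Keratinocyte markers differed too: 6 of 8 were higher in A than in B, including ITGA6 (log2 1.11) and KRT5 (log2 0.70), 4 of 8 were lower in B than in control, and 2 of 8 (COL17A1 and ITGB4) were higher in A than in control. Over all genes tested, 9.25% were called higher in A against B, 7.24% lower in B against control and 1.76% higher in A against control.

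Across the 9 libraries, log2 CPM of S100A2 was closest to that of TNFRSF12A (r = 0.997), CHMP6 (r = 0.995) and ADRM1 (r = 0.994). For S100A9 the closest were COA3 (r = 0.990), CKS2 (r = 0.987) and ELOC (r = 0.983). These are the highest correlations over 9 points among the 13845 genes tested, with the members left out, and all share library depth and scaling. Among the members, S100A2 ran with S100A16 (r = 0.96) and S100A9 (r = 0.95), and S100A6 with S100A14 (r = 0.92), whereas S100A2 and S100A4 did not (r = 0.05).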

How the data were processed

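RNA of HaCaT cells was sequenced as pairs of 150 bases. FastQC, HISAT2, StringTie and the build GRCh38 are named in the submitters' processing notes, without versions. The sources used here do not give strand setting, annotation release or handling of multi-mapped reads. S100A6 and S100A11 overlap antisense genes and S100A4 overlaps S100A3, so these may have exchanged reads. One table holds whole-number counts as deposited by the authors, and the other FPKM made by the authors. Each deposited FPKM equals the count over gene length and a library constant, 0.936 to 1.07 times the total. Of 58336 identifiers, 58216 were in GENCODE release 29.

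Columns were matched to groups as described in the report: Nc as control, and A and B as treated without a time, from a description of the columns supplied for this re-analysis and because 6 of the 9 labelled samples were treated. No label ties these names to samples. The planned comparisons by time were therefore replaced by comparisons by stem.

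edgeR 4.0.16 (glmQLFit, glmQLFTest, TMM) was run in R 4.3.3 on counts of all 9 libraries, for 13845 genes kept by filterByExpr, with Benjamini-Hochberg adjustment over all of them and a threshold of 0.05. It was tested on simulated data with known changes. Log2 fold changes are A or B minus control, or A minus B. Alternatives used DESeq2 1.42.0, limma 3.58.1 on log2(FPKM + 0.1), other scalings and filters, offsets for GC content and length (mgcv 1.9-3), a replicate block, and each library left out. The named genes are all members, other S100 genes, partners, neighbours, cell markers and the 3 genes most correlated with S100A2 and with S100A9. One gene of the partner list is counted but not reported here by name. Members and lists were chosen with earlier results of these data known. Same-numbered A and Nc libraries deviated together (r = 0.81, 0.58 and 0.49), but not B with Nc (r = -0.52, -0.59 and -0.31) or A with B. Differently numbered A and Nc libraries had r of -0.66 to 0.25. Some differently numbered pairs with B also deviated together, such as A1 with B2 (r = 0.61) and Nc1 with B2 (r = 0.59). The number in a column name is no label. Replicates differed beyond sampling noise. Counting error is small for all members except S100A8 and S100P.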

Additional observations from a re-analysis of the deposited data

Results flagged for a closer look

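The differences between A and B flagged 4 members, because both stems were compared with the same control libraries and A against B tests whether those changes differ. For S100A2 the log2 difference was 1.11, for S100A16 0.84, for S100A9 0.73 and for S100A10 0.41. All A libraries lay above all B libraries for each of the 4. Of these members, S100A16 was called against control in A and none was called in B. The time each stem stands for is not known, so these differences are by stem only, and their cause was not tested.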

How the results depend on the processing

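S100A2 and S100A16 stayed higher in A than in B under every alternative run, S100A2 by 0.99 to 1.29 when single libraries were left out. The calls of S100A9 and S100A10 in A against B and of S100A16 in A against control did not. Counts are given as genes higher and lower unless members are named, and the cause of a change was not tested. The alternatives without mitochondrial genes and with the block for A and Nc alone were chosen after seeing the data.

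Leaving out each library in turn, A against B gave 538 to 1678 genes higher, 570 to 1543 lower and 2 to 4 members higher. A against control gave 69 to 561 higher, 32 to 356 lower and 0 to 2 members higher. B against control gave 292 to 894 higher, 205 to 1143 lower and 0 to 2 members lower, the 2 being S100A2 and S100A9 without Nc1. The mean of A and B gave 5 to 337 higher and 2 to 917 lower. Log2 values near 0 crossed it: in A against B, S100A14 (-0.12 to 0.16), S100A6 (-0.19 to 0.073) and S100A8 (-0.11 to 0.58); in A against control, S100A14 (-0.070 to 0.25), S100A4 (-0.28 to 0.17) and S100P (-0.45 to 0.32). In B against control these were S100A10 (-0.094 to 0.059), S100A11 (-0.22 to 0.041), S100A14 (-0.079 to 0.22) and S100A8 (-0.083 to 0.61). In the mean they were S100A11 (-0.085 to 0.16), S100A14 (-0.074 to 0.21), S100A2 (-0.23 to 0.21), S100A4 (-0.13 to 0.33), S100A9 (-0.32 to 0.086) and S100P (-0.16 to 0.62).

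With the number in the column name as a replicate block, A against control had 149 higher and 0 members, the mean had 123 higher, and S100A4 in A against control was 0.014. With the replicate block for A and Nc alone, A against control had 1079 higher, 940 lower and 3 members higher (S100A2, S100A10 and S100A16). B against control then had 1491 higher and 1764 lower, with 1 member higher and 2 lower. The mean had 700 higher, 1381 lower and 1 member higher, A against B had 2117 higher, and S100A4 in A against control was 0.035. The replicate block with GC and length offsets gave A against B 2167 lower with 2 members lower, A against control 199 lower, B against control 1591 higher with 1 member higher and 3 lower, and the mean 211 lower. Reversed values there were S100A14 at -0.056 (A against B), -0.030 (A against control) and -0.0016 (mean), S100A11 at -0.024 and S100A2 at -0.061 (mean). The block for A and Nc alone with those offsets gave A against B 2072 higher and 2660 lower with 2 members lower, A against control 513 higher and 373 lower with 2 members higher, B against control 2145 higher and 1748 lower with 1 member higher and 3 lower, and the mean 676 higher with 1 member higher. S100A14 was then -0.056, -0.030 and -0.0020, S100A11 -0.024 and S100A2 -0.061 in the same comparisons.

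GC and length offsets alone gave A against B 2358 lower with 2 members lower, A against control 285 lower, B against control 1815 higher with 1 member higher and 3 lower, and the mean 388 higher with 1 member higher. S100A14 was -0.053 in A against B, -0.029 in A against control and -0.0028 in the mean, where S100A11 was -0.026 and S100A2 -0.066. Library totals alone gave A against B 799 higher, B against control 492 lower, the mean 36 higher and 19 lower, S100A14 at -0.066 in A against B and S100A10 at 0.019 in B against control. A minimum mean of 100 counts gave A against B 745 higher, B against control 648 lower, S100A14 at -0.073 and S100A10 at 0.020, with fewer genes tested. DESeq2 gave A against control 443 higher and 317 lower with 2 members higher, the mean 300 higher and 900 lower, and S100A2 at -0.0020 in the mean. Only the libraries compared gave A against control 149 higher and 0 members. Without Nc1 and Nc2 together, which leaves 1 control library assumed to vary like the other groups, A against control had 17 higher, 17 lower and 0 members, B against control 40 higher and 22 lower, and the mean 2 higher and 1 lower. S100P was then 0.057 in A against control, and S100A2 -0.048 and S100A4 -0.0084 in the mean. limma on FPKM gave A against control 144 higher, 82 lower and 0 members, B against control 657 lower, the mean 27 higher and 9 lower, and S100A4 at 0.029 in A against control. With no filter A against control had 663 lower and 2 members higher, B against control 1535 lower and 2 members lower, the mean 1273 lower, S100A11 -0.0084 and S100A2 -0.038. Without mitochondrial genes A against control had 0 members, S100A14 was -0.014 in A against B and S100A2 -0.0015 in the mean. Scaling by DESeq2 size factors in edgeR changed no member's call or direction.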
